A study of Mus musculus with 258 samples.

Results

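Nascent beta cells of the embryonic mouse pancreas are compared here with the progenitors at the other end of the endocrine course. The comparison rests on 4 bulk RNA-seq libraries of the 258 samples in the series, chosen by their labels from the table of bulk read counts: 2 libraries of Ngn3-low cells and 2 libraries of Ins1-RFP positive cells. The Ngn3-low cells were sorted at embryonic stage E13.5 from the dorsal pancreas of Ngn3-GFP embryos, in which a green reporter marks activity of the Neurog3 gene, and carried a low signal. The Ins1-RFP positive cells were sorted at E17.5 from the pancreas of Ins1-RFP embryos, in which a red reporter marks activity of the Ins1 gene. No other allele and no treatment is named for either group. Each library was made from poly(A) RNA of sorted cells in bulk, so every value is an average over all cells that passed the gate. The labels do not say that the 2 libraries of a group came from separate litters or sorts, and the p-values then measure only the spread between these libraries, which may be technical. Embryonic day, reporter line and the named part of the pancreas all change together between the groups and cannot be told apart. The study as a whole followed endocrine commitment by RNA-seq and by chromatin profiling of histone marks, and included single-cell RNA-seq of normal and Jmjd3-deleted pancreas. The 2 bulk libraries of Ngn3-high cells from E13.5 and 49 single normal Ngn3-low cells are used below for values between the ends and for a second look at the progenitor gate.

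Neurog3 is the basic helix-loop-helix factor that starts the endocrine programme of the pancreas. Progenitors with little of it still divide and can become duct or endocrine cells, whereas cells with a high level leave the cycle, switch on the islet transcription factors and then lose Neurog3 again. A beta cell makes proinsulin in the endoplasmic reticulum, folds it with chaperones and disulphide isomerases, cuts it inside granules with prohormone convertases, and releases insulin by calcium-triggered exocytosis when glucose metabolism closes its ATP-sensitive potassium channels.

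The libraries held 12225838 to 17760214 reads in genes. Levels are given as CPM, read counts divided by library size after scaling by factors that even out the bulk of genes, in the order library 1 and library 2. Defining markers of each label were read. Sox9, Pdx1, Onecut1 and Spp1 were at 54.3 CPM or more in each Ngn3-low library. Ins1, Ins2, Iapp, Mafa, Slc2a2 and Nkx6-1 were at 94.7 CPM or more in each Ins1-RFP positive library. Not all of these levels separate the groups: Sox9, Pdx1 and Spp1 also passed 54.3 CPM in the Ins1-RFP positive libraries. Slc2a2 and Nkx6-1 likewise passed 94.7 CPM in Ngn3-low, and Ins1 is the gene whose reporter was sorted on. Both sorts also held reads of genes that mark other cell types. Of the 22 macrophage and white blood cell markers, the summed level in Ngn3-low was 5661 and 4635 CPM, and in Ins1-RFP positive cells 118 and 191 CPM. The 31 tip and acinar genes summed to 892 and 755 CPM in the progenitors and to 2746 and 45007 CPM in the Ins1-RFP positive pair, so that the second Ins1-RFP positive library stands apart. Xist and the Y-linked Ddx3y were read in every library (Xist at 609 CPM or more, Ddx3y at 41.2 CPM or more), and each library therefore held RNA of both sexes.

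**Figure D1:**
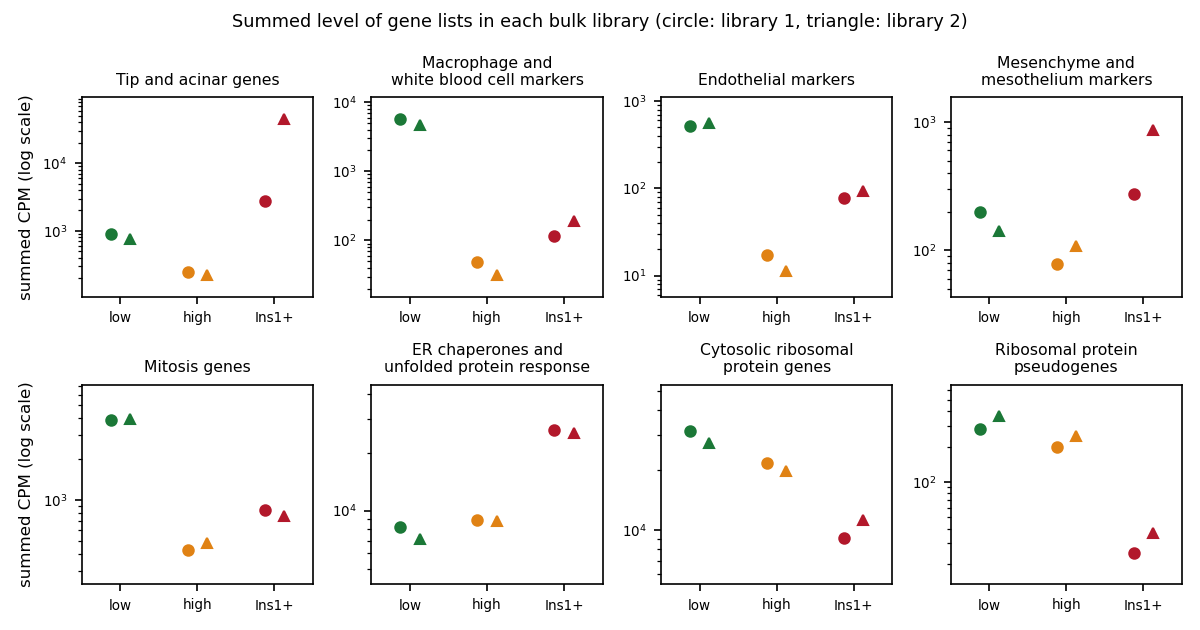
Summed level of 8 gene lists (vertical axis, CPM on a log scale) in each of the 6 bulk libraries of Ngn3-low (green), Ngn3-high (orange) and Ins1-RFP positive cells (red). The second Ins1-RFP positive library holds 45007 CPM of tip and acinar genes against 2746 CPM in the first, and the macrophage markers sum to 4635 CPM or more in the Ngn3-low libraries alone.

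Of 15684 genes tested with edgeR's quasi-likelihood test, 4775 (30.4%) were higher in the Ins1-RFP positive libraries and 5573 (35.5%) were lower at an adjusted p under 0.05, 66% in all. At least 2-fold, 3036 genes (19.4%) were higher and 3615 (23%) lower, and at least 8-fold, 1022 (6.52%) and 1110 (7.08%). The median log2 fold change over all genes was -0.08, and scaling by total counts alone moved it by a further -0.17. Counts over gene groups below are read against these shares. In bulk RNA, fewer cells of a type and less RNA per cell cannot be told apart.

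Genes of the working beta cell were higher almost throughout. Of 26 beta cell function genes tested, 25 were higher in Ins1-RFP positive cells and 1 was lower, against 30.4% and 35.5% of all genes, with a median log2 fold change of 6.31. Ins1 was read at 46.6 and 2.82 CPM in the progenitors, at 90.8 and 86.4 CPM in Ngn3-high cells and at 34850 and 23700 CPM in Ins1-RFP positive libraries. Ins2 was read at 102 and 7.32 CPM, at 183 and 137 CPM and at 61403 and 39465 CPM. The groups were far apart for both genes, although the first Ngn3-low library held over 10 times the insulin reads of the second, and the single Ngn3-low cells showed Ins1 at 10 CPM or more in 0 of 49, which allows a share of up to 6.12% by a floor of 3 cells and 7.25% by the exact 95% interval, for counting error within 1 sample, and Ins2 in 1 of 49. Ins1 and Ins2 are close in sequence, and reads that fit both may have been split between them or dropped. The log2 fold changes were 10.19 for Ins1 (SE 1.23, adjusted p = 0.00013) and 9.85 for Ins2 (SE 1.23, adjusted p = 0.00016). Per kilobase of gene length, Ins2 was the most abundant gene of the Ins1-RFP positive cells, followed by Ins1 and by Iapp, which encodes the amyloid peptide stored with insulin: their levels were 86507, 28814 and 8557 RPKM, reads scaled by gene length and depth.

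Genes of glucose entry, zinc loading and incretin response had their highest level in Ins1-RFP positive cells. Slc2a2, the glucose transporter of the beta cell, was at 122 and 108 CPM in Ngn3-low, was at 18.1 and 28.4 CPM in the Ngn3-high libraries and stood at 804 and 563 CPM in Ins1-RFP positive cells, a log2 fold change of 2.57 between the ends (SE 0.24, adjusted p = 2.8e-05). Slc30a8, which loads zinc into insulin granules, was at 1.24 and 0.762 CPM in Ngn3-low cells, 7.52 and 11.9 CPM in Ngn3-high and 1017 and 830 CPM in Ins1-RFP positive cells. G6pc2, the islet glucose-6-phosphatase, followed the same order with 2.26 and 0.915, 11 and 15.7, and 904 and 697 CPM, and the incretin receptor gene Glp1r with 0.215 and 0, 1.79 and 2.58, and 85.2 and 76.2 CPM. Slc30a8, G6pc2 and Glp1r were therefore far lower in the Ngn3-high libraries than in the Ins1-RFP positive libraries. The single member that fell was Slc39a10, a zinc importer, from 166 and 169 CPM to 82.0 and 77.8 CPM.

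Of 10 other hormone genes tested, a list not limited to islet hormones, 7 rose and none fell. Tac1, Cck and Penk did not pass the test. Sst was at 1.99 and 0.0762 CPM in Ngn3-low and at 713 and 1495 CPM in Ins1-RFP positive libraries, a log2 fold change of 9.89 (SE 0.72, adjusted p = 7.1e-06). Gcg was at 248 and 240 CPM in Ngn3-low cells and already at 871 and 1150 CPM in Ngn3-high, beside 774 and 1602 CPM at E17.5. Ppy and Pyy rose from 3.23 and 1.98 CPM to 85.9 and 102 CPM and from 50.4 and 40.6 CPM to 488 and 879 CPM. The second Ins1-RFP positive library, which held more acinar RNA than the first, was the higher of the pair for Sst, Gcg, Ppy and Pyy. It was the lower for Ins1, Ins2 and Iapp. Without it, the log2 fold changes of Sst and Gcg were 9.25 and 1.67. Cck, the gut hormone cholecystokinin, was at 1.24 and 1.45 CPM, 114 and 157 CPM in Ngn3-high, and 1.07 and 2.04 CPM: its level at E17.5 was back near that of the progenitors.

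The islet transcription factors split into those that stayed high and those that did not. Of 29 tested, 23 were higher at E17.5, 4 were lower and 2 (Rfx3 and Etv1) were not called, with a median log2 fold change of 2.15. Neurod1, a direct Neurog3 target, was at 2.85 and 2.59 CPM in Ngn3-low cells, 256 and 329 CPM in Ngn3-high and 288 and 302 CPM in Ins1-RFP positive cells (log2 fold change 6.75, SE 0.19, adjusted p = 1.8e-07). Pax6, needed by all islet cell types, held the same shape at 6.30 and 5.79, 441 and 495, and 568 and 556 CPM. Mafa, the maturity factor of beta cells, was at 0.215 and 0.152, 1.01 and 4.91, and 94.7 and 121 CPM. Pdx1, Nkx6-1 and Nkx2-2, which act in both progenitors and beta cells, were well expressed at both ends and differed less, with log2 fold changes of 2.22 (SE 0.16), 1.41 (SE 0.30) and 1.09 (SE 0.12).

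The 4 factors that were lower in Ins1-RFP positive cells than in Ngn3-low cells were Neurog3, Pax4, Hhex and Nkx6-2. Neurog3 was at 184 and 150 CPM in Ngn3-low, at 1198 and 1084 CPM in Ngn3-high and at 30.1 and 28.3 CPM in Ins1-RFP positive libraries, a log2 fold change of -2.51 between the ends (SE 0.15, adjusted p = 2.6e-06). Pax4, a repressor that favours the beta over the alpha fate, showed 23.7 and 19.4, 302 and 232, and 8.93 and 8.46 CPM. Both genes therefore ended below the level of the progenitors. Fev also had its highest level in Ngn3-high, but ended above the progenitors, at 0.431 and 0.686, 195 and 248, and 32.5 and 32.7 CPM.

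**Figure D2:**
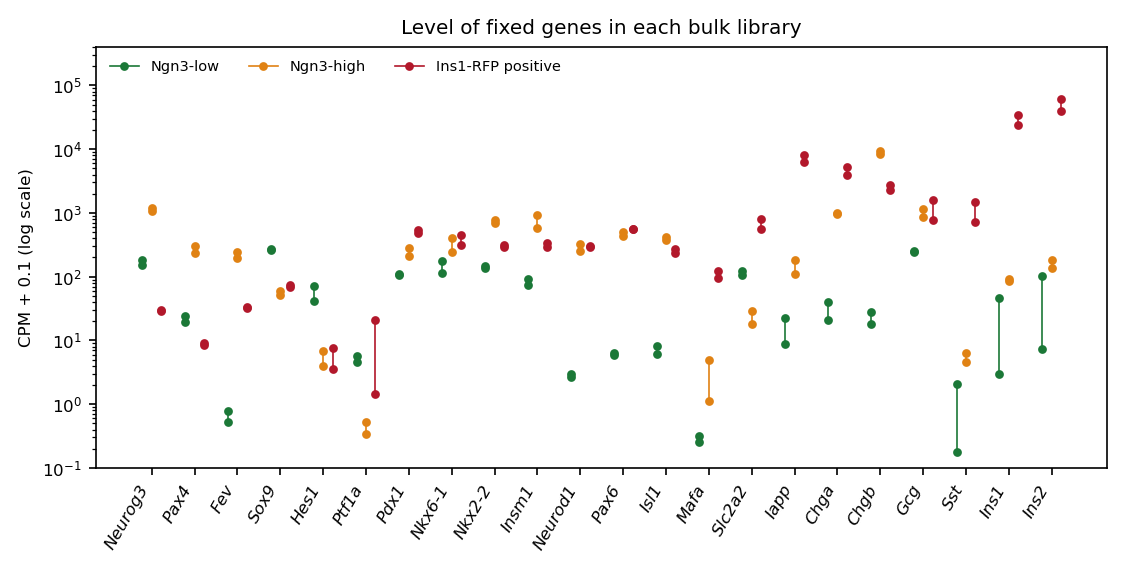
Level of 22 genes (vertical axis, CPM plus 0.1 on a log scale) in the 2 libraries each of Ngn3-low (green), Ngn3-high (orange) and Ins1-RFP positive cells (red), joined by a line where they share a group. Neurog3 and Pax4 end below the Ngn3-low level after a peak in Ngn3-high, and Ins1 and Ins2 reach 23700 to 61403 CPM in the Ins1-RFP positive libraries.

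The secretory granule and the machinery of its release made up the next group. Of 18 granin and prohormone processing genes tested, 16 were higher and 1, the vesicular monoamine transporter gene Slc18a2, was lower, a call (log2 fold change -1.20) that was lost without either Ngn3-low library, without the first Ins1-RFP positive library (-0.65), and with the replicate block (adjusted p = 0.053, edgeR), with a median log2 fold change of 6.01. Pcsk1 and Pcsk2, the convertases that cut proinsulin, rose from 7.11 and 4.73 CPM to 1383 and 1089 CPM and from 26 and 19.4 CPM to 3405 and 3046 CPM. Scg2, a granin, was at 8.24 and 4.34 CPM in Ngn3-low cells, 59 and 71.8 CPM in Ngn3-high and 3184 and 2473 CPM in Ins1-RFP positive cells. Chga rose from 40.1 and 21 CPM through 971 and 982 CPM to 5270 and 3957 CPM, whereas Chgb was at 27.6 and 18.1 CPM, 8445 and 9417 CPM in Ngn3-high, and 2738 and 2324 CPM.

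Of 26 exocytosis genes tested, 23 were higher and only Stx4a was lower, with a median log2 fold change of 2.48. Snap25, a SNARE protein of the fusion complex, was at 1.83 and 1.07 CPM against 95.6 and 98.7 CPM, and Unc13a, which primes granules, at 3.5 and 3.12 CPM against 167 and 150 CPM. Of 23 channel genes, 20 were higher, and Ano1 and Trpm4 were lower. Abcc8 and Kcnj11, which together form the ATP-sensitive potassium channel, rose from 122 and 115 CPM to 1653 and 1453 CPM and from 23.6 and 18.1 CPM to 104 and 86.5 CPM. The calcium channel gene Cacna1c rose from 3.55 and 3.66 CPM to 91.3 and 95.8 CPM. Neuronal cytoskeleton and RNA binding genes were higher in 16 of 22 and lower in 4: the microtubule gene Mapt rose from 1.29 and 0.61 CPM to 268 and 239 CPM, and Stmn1, a microtubule destabiliser of dividing cells, fell from 265 and 249 CPM to 45.4 and 40.6 CPM.

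The endoplasmic reticulum of the nascent beta cell carried more chaperone RNA throughout. Of 27 genes of ER chaperones and the unfolded protein response, 26 were higher and only Trib3 was not called, with a median log2 fold change of 1.72, and 35 of 36 genes of translocation and early secretory transport were higher with a median of 1.27 (Sec62 was not called). The chaperone list summed to 8192 and 7127 CPM in Ngn3-low, to 8996 and 8802 CPM in Ngn3-high and to 26301 and 25236 CPM in Ins1-RFP positive cells, so the Ngn3-high libraries stood near the progenitors and the Ins1-RFP positive libraries did not. Hyou1, an ER Hsp70 family member, rose from 251 and 237 CPM to 2362 and 2102 CPM (log2 fold change 3.19, SE 0.16, adjusted p = 1.0e-06), and Sdf2l1, an ER cochaperone, from 26.9 and 25.1 CPM to 330 and 333 CPM. Derl3, a factor of ER-associated degradation, rose from 0.915 and 0.457 CPM to 107 and 110 CPM. The summed chaperone level was 26301 CPM in the library with 2746 CPM of acinar genes and 25236 CPM in the one with 45007 CPM, and the part of acinar RNA in the rise was not tested.

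A short sequence before the start is shared by part of this list. The ER stress response element, spelled CCAAT, 9 bases of any kind and CCACG, and searched on both strands, is known to bind Atf6 with the CCAAT factor NF-Y. In RefSeq promoter windows (GRCm38.p6, 250 bases before to 50 after each start), it was present for 8 of the 24 list members with a window (33.3%) and for 37 of all 27025 genes with one (0.137%). The 8 members were Hspa5, Hsp90b1, Pdia6, Calr, Canx, Dnajc3, Creld2 and Derl3, and it was found for none of 29 translocation and transport genes. The element and up to 30 bases on either side are printed for 5 members, since they show the element in both orientations, with the CCAAT and CCACG parts (or ATTGG and CGTGG where it lies on the other strand) in capitals. The stretches are Hspa5 chr2:34771995-34772073 on the plus strand, Pdia6 chr12:17266461-17266539 on the plus strand, Dnajc3 chr14:118937797-118937875 on the plus strand, Creld2 chr15:88819490-88819568 on the plus strand, Derl3 chr10:75893212-75893290 on the plus strand.
Hspa5: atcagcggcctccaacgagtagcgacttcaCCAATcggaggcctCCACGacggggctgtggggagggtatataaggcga
Pdia6: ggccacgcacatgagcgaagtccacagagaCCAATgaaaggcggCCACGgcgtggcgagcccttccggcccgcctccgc
Dnajc3: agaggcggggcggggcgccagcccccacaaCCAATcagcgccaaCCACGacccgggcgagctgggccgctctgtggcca
Creld2: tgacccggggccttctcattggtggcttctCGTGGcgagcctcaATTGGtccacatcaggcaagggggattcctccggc
Derl3: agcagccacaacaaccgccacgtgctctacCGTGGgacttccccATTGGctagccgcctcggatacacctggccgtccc
In that order their log2 fold changes were 1.89, 1.68, 2.11, 2.86 and 7.22. Hspa5, the master chaperone BiP, and Derl3 thus carry the same letters and differ widely in fold. A match describes letters, not binding.

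Nearly all division genes were lower in Ins1-RFP positive cells. All 30 mitosis genes tested were lower in Ins1-RFP positive cells, by 2-fold or more each and with a median log2 fold change of -2.23, and 30 of 32 DNA replication genes were lower (median -1.81), with E2f1 and Ccne2 not called. Mki67, the common proliferation marker, was at 542 and 610 CPM in Ngn3-low cells, 41.9 and 51.6 CPM in Ngn3-high and 110 and 113 CPM in Ins1-RFP positive cells (log2 fold change -2.37, SE 0.14, adjusted p = 2.3e-06). The mitosis list summed to 3864 and 3972 CPM, then to 429 and 478 CPM, then to 836 and 759 CPM, so that it was lowest in Ngn3-high. The DNA replication list summed to 3230 and 3131 CPM, then to 1110 and 1064 CPM, then to 907 and 809 CPM, and was lowest in Ins1-RFP positive cells. Among single Ngn3-low cells, 23 of 49 held Mki67 at 10 CPM or more (46.9%, exact 95% interval 32.5 to 61.7%), so the progenitor level averages cells with and without it. Ccnb1, Cdc20 and Bub1b were the mitosis genes whose mean was not higher in Ins1-RFP positive than in Ngn3-high cells. Bub1b, a spindle checkpoint kinase gene, was at 155 and 161, 13 and 15.4, and 15.8 and 12.5 CPM.

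The cell cycle homology region, spelled TTTGAA here and searched on both strands, lies near the start of many genes read in G2 and mitosis. It was present in the promoter window of 19 of 25 mitosis genes with one (76.0%), of 4 of 26 replication genes (15.4%) and of 5466 of all 27025 genes (20.2%). The pentamer CCAAT, which the ER element above also contains, was present for 21 of the 25 mitosis genes (84.0%) and for 41.1% of all genes. It was not particular to them: the shares were 83.3% for ER chaperone, 61.5% for neuronal cytoskeleton and 57.7% for replication genes. In the translocation, granin, exocytosis and channel lists they ran from 21.4 to 38.9%. Stretches before the start are printed for Mki67, which holds 2 copies, and for Cdc20 and Ube2c, an activator and the E2 enzyme of the anaphase-promoting complex, with TTTGAA or its complement TTCAAA in capitals. They are Mki67 chr7:135716442-135716525 on the minus strand, Cdc20 chr4:118437344-118437391 on the minus strand, Ube2c chr2:164769870-164769928 on the plus strand.
Mki67: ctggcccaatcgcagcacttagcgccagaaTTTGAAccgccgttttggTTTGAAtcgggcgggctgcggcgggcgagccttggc
Cdc20: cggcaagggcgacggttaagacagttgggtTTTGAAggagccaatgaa
Ube2c: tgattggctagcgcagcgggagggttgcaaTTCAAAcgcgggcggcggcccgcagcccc
The log2 fold changes of these genes were -2.37, -2.33 and -2.01.

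Brakes on the cycle did not move one way. Of 15 cell cycle exit genes tested, 7 were higher, 4 lower and 4 not called. Cdkn1b, the inhibitor p27, rose from 57.3 and 48.5 CPM to 162 and 129 CPM. Cdkn1a, the inhibitor p21, was at 264 and 211 CPM, 630 and 546 CPM in Ngn3-high and 40.9 and 48.6 CPM in Ins1-RFP positive cells. Cdkn1c, the inhibitor p57, was at 222 and 198, 256 and 240, and 28.5 and 62.5 CPM. Both therefore ended below the average level of the Ngn3-low libraries. Of 8 D-type cyclin and Myc genes, only Ccnd2 was higher and 6 were lower. Ccnd2, the D cyclin of islet growth, rose from 156 and 215 CPM to 788 and 719 CPM, while Ccnd1 fell from 292 and 288 CPM to 57.8 and 68.5 CPM and Mycn from 24.5 and 22.9 CPM to 2.89 and 1.80 CPM.

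Progenitor transcription factors were lower in 17 of 29 tested, higher in 5 and not called in 7, with a median log2 fold change of -1.14. Sox9, which maintains the progenitor pool, was at 264 and 266 CPM in Ngn3-low and at 69.9 and 73.5 CPM in Ins1-RFP positive cells (log2 fold change -1.89, SE 0.11, adjusted p = 2.0e-06). Onecut1 fell further, from 54.3 and 64 CPM to 2.28 and 4.70 CPM. Onecut3 was at 9.53 and 11.1 CPM and had no read in either Ins1-RFP positive library, at least 94.0-fold lower against a floor of 3 counts over the group. Rest, the repressor of neuronal genes outside neurons, was at 168 and 161 CPM, 7.22 and 10.8 CPM in Ngn3-high and 6.31 and 9.63 CPM (log2 fold change -4.37, SE 0.23, adjusted p = 1.4e-06). Foxa2, Id4, Elf3 and Meis2 were among those that were higher.

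Trunk and duct surface genes were lower in 16 of 23 tested, higher in 3 and not called in 4. Spp1, osteopontin, fell from 1270 and 1245 CPM to 171 and 148 CPM. Krt7, a duct keratin, rose from 152 and 157 CPM to 337 and 314 CPM and was highest in Ngn3-high at 563 and 544 CPM. Cftr and Tspan8 were not called, and their Ngn3-low libraries differed, at 1.72 and 9.60 CPM for Cftr and at 5.06 and 14.8 CPM for Tspan8.

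Notch signalling holds progenitors back from the endocrine fate. RNA of its receptors was lower, while ligands and targets were mixed. Of 23 genes tested, 13 were lower, 6 higher and 4 not called, with a median log2 fold change of -1.62. Among receptors, Notch2 fell from 406 and 407 CPM to 24.6 and 33 CPM (log2 fold change -3.82, SE 0.15, adjusted p = 4.4e-07), and Notch1, Notch3 and Notch4 also fell. Among ligands, Dll1, Dll3 and Jag1 fell (Dll3 was not called without the first Ngn3-low library, at -0.81, or the first Ins1-RFP positive library, at -0.74 on the log2 scale), Dll4 was not called (26.3 and 23 against 28.1 and 21.6 CPM), and Jag2 rose from 10.6 and 10.7 CPM to 133 and 98.0 CPM. Among targets, Hes1, the repressor of Neurog3, fell from 71.8 and 40.8 CPM to 3.49 and 7.6 CPM. Nrarp fell from 30.9 and 30.9 CPM to 3.42 and 3.52 CPM. Hey1 also fell, but Dtx1 rose and Heyl was not called. Of the 49 single Ngn3-low cells, Notch2 was held at 10 CPM or more by 49, Notch1 by 47, Hes1 by 44, Notch3 by 35, Jag1 by 31, Nrarp by 23 and Dll1 by 20. Notch4 was held by 5 and Dll3 by 3. The endothelial markers, which summed to 525 and 567 CPM in Ngn3-low and to 76.7 and 92.1 CPM in Ins1-RFP positive cells, fell in the same comparison, and their part in the fall of Notch genes was not tested.

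Hippo and Wnt pathway genes were lower in 27 of 33 tested and higher in 3, with a median log2 fold change of -1.90. Yap1, the Hippo effector, fell from 156 and 162 CPM to 7.65 and 17.1 CPM (log2 fold change -3.70, SE 0.32, adjusted p = 1.8e-05). Its DNA-binding partner Tead2 fell from 261 and 236 CPM to 10.8 and 31.7 CPM but was still at 262 and 195 CPM in Ngn3-high, where Yap1 was at 17 and 23 CPM. Cyr61, a Yap target, fell from 636 and 579 CPM to 36.3 and 37.9 CPM. The ligand Wnt7b fell from 121 and 116 CPM to 2.68 and 3.21 CPM, and the ligand Wnt4 rose from 3.18 and 3.12 CPM to 35.9 and 33.6 CPM.

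Genes of growth factor signalling, receptors among them, moved in both directions. Of 23 FGF and EGF signalling genes tested, 12 were lower, 5 higher and 6 not called: the receptor gene Fgfr2 fell from 308 and 319 CPM to 47.8 and 42.1 CPM and Erbb3 from 226 and 224 CPM to 32.2 and 36.2 CPM, whereas Egfr rose from 4.09 and 4.65 CPM to 13.1 and 12.4 CPM. Of 27 TGF-beta, activin and BMP genes, 16 were lower and 5 higher. The activin receptor gene Acvr1c rose from 1.51 and 1.75 CPM to 90.3 and 108 CPM, and Tgfbr2 fell from 125 and 112 CPM to 4.97 and 9.87 CPM. The ligand genes Tgfb1 and Bmp2 fell from 67.3 and 65.4 CPM to 2.68 and 4.70 CPM and from 25.7 and 21 CPM to 0.872 and 0.626 CPM, but were held at 10 CPM or more by 0 and 1 of the 49 single Ngn3-low cells.

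Chromatin genes moved in both directions, at shares near those of all genes. Of 32 Polycomb genes and H3K27 demethylases, 10 were higher, 11 lower and 11 not called, with a median log2 fold change of 0.04, close to that of all genes. With 1 library left out in turn, 6 to 9 were higher and 7 to 9 lower. Ezh2, the H3K27 methyltransferase of dividing cells, fell from 147 and 150 CPM to 28.9 and 28.1 CPM (log2 fold change -2.38, SE 0.10, adjusted p = 5.8e-07), while its paralogue Ezh1 rose from 37.2 and 33.5 CPM to 70.2 and 61.2 CPM. Among the chromobox subunits, Cbx7 rose from 8.61 and 9.98 CPM to 35.6 and 29.9 CPM and Cbx2 fell from 70.9 and 67.9 CPM to 30.3 and 24 CPM. Kdm6b, which encodes the demethylase Jmjd3, was at 173 and 161 CPM, 350 and 314 CPM in Ngn3-high and 271 and 235 CPM, a log2 fold change of 0.60 between the ends (SE 0.12, adjusted p = 0.0028). Its paralogue Kdm6a, known as Utx, differed by 0.03 on the log2 scale (95% interval -0.23 to 0.29, edgeR). In the list for H3K4 methylation and H3K27 acetylation, with 23 genes tested, 5 were higher and 9 lower, with 1 of each passing 2-fold and 3 to 4 higher and 4 to 6 lower with 1 library left out in turn: Hdac5 rose from 81.2 and 69 CPM to 186 and 138 CPM and Hdac1 fell from 223 and 205 CPM to 85.0 and 73.9 CPM. In the DNA methylation list, 3 of 12 genes were higher and 5 lower (3 to 5 lower with 1 library left out in turn). Uhrf1 and Dnmt1, which copy methylation after replication, fell by 2.89 and 1.49 on the log2 scale, Dnmt3a, the de novo enzyme, rose from 458 and 459 CPM to 864 and 849 CPM, and none of Tet1, Tet2 and Tet3 was called.

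Genes that mature beta cells are known to keep low were already lower in 14 of 17, with a median log2 fold change of -3.16. Igfbp4 fell from 401 and 369 CPM to 9.87 and 32 CPM, the hexokinase gene Hk2 from 115 and 115 CPM to 2.62 and 11.8 CPM, and Ldha, lactate dehydrogenase, from 365 and 347 CPM to 17.2 and 85.7 CPM. The second Ins1-RFP positive library was the higher of the pair for all 3. Oat rose by 0.53 on the log2 scale, a call that was lost without the second Ngn3-low library (0.44, edgeR's adjusted p = 0.057), and Pdgfra and Mylk were not called. The single Ngn3-low cells held Igfbp4 in 49, Ldha in 47 and Hk2 in 31 of 49, but Maf, which fell from 372 and 359 CPM to 4.50 and 9.32 CPM, in 2, Fcgrt in 5 and Hk1 in 1.

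Of 20 glycolysis genes, 10 were lower and 3 higher; Eno1 fell from 539 and 530 CPM to 111 and 104 CPM, and its paralogue Eno2 rose from 0.592 and 1.22 CPM to 11.6 and 11.4 CPM. Of 52 nuclear-encoded respiratory chain genes, 8 were higher, 13 lower and 31 not called (5 to 13 lower with 1 library left out in turn), and their summed level was 5887 and 5487 CPM against 5275 and 5346 CPM.

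Cytosolic ribosomal protein genes were lower in 51 of 52, with a median log2 fold change of -1.53 and summed levels of 31592 and 27225 CPM in Ngn3-low cells, 21645 and 19703 CPM in Ngn3-high and 9113 and 11231 CPM in Ins1-RFP positive libraries. Rps23, a small subunit protein, fell from 561 and 483 CPM to 57.4 and 75.4 CPM. The exception was Rpl24, at 0.700 and 0.762 CPM against 12.3 and 17.7 CPM. These genes have many near-identical pseudogene copies, among which a counter can split or drop reads, so their values are uncertain. Of 31 ribosomal protein pseudogenes tested, 26 were lower and 3 higher, and all 241 listed summed to 279 and 367 CPM in Ngn3-low cells, 199 and 246 CPM in Ngn3-high and 24.8 and 36.9 CPM in Ins1-RFP positive libraries.

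Some entries were read in the libraries of 1 embryonic day and not in those of the other, and day, reporter line, gate and preparation cannot be told apart for them. No read was counted in any of the 4 libraries of E13.5, and 5 CPM or more in both libraries of E17.5, for 8 entries, among them Gm11410 (735 and 760 CPM), Gm15662 (300 and 558 CPM) and the microRNA gene Mir6236 (301 and 406 CPM). All 3 had reads in 218 or more of the 221 single cells of E13.5, which were made by another protocol. The reverse pattern held for 9 entries, 7 of them pseudogenes. These entries lead the table of changes in both directions (against a floor of 3 counts over the group, Gm11410 and Gm15662 were at least 7888-fold and 4425-fold higher, Gm24187 at least 971-fold lower), and whether libraries of both days were sequenced and aligned alike is not given in the sources used here. The part of such a difference in the fall of the ribosomal protein genes was not tested.

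Beside those entries, the widest rises were those of Kcnk9, Try10, Prss1, Cela2a, Ins1, Cpb1 and Sst. Kcnk9, which encodes a background potassium channel, had no read in the progenitors, 0.119 and 0.166 CPM in Ngn3-high and 136 and 123 CPM in Ins1-RFP positive libraries, at least 1373-fold higher. Try10, Prss1, Cela2a and Cpb1 encode digestive enzymes, the trypsin genes among them with near-identical copies that make their counts uncertain, and differed between the Ins1-RFP positive libraries (Cela2a 80.2 and 1930 CPM, Cpb1 97.1 and 2080 CPM). The acinar list as a whole was higher in 24 of 28 tested with a median log2 fold change of 6.44. Without the second Ins1-RFP positive library, 21 were higher and 6 lower, Ptf1a turned from a log2 fold change of 1.15 to -1.88, and the first library alone still held 889 CPM of Ctrb1, a chymotrypsinogen gene, against 56.9 and 52.7 CPM in Ngn3-low. The transcription factor gene Nr5a2, in contrast, fell from 137 and 136 CPM to 12.2 and 28.3 CPM.

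Among the widest falls were those of Col2a1, from 568 and 536 CPM to 2.08 and 3.13 CPM, Ms4a6b, from 80.0 and 67.4 CPM to 0.134 and 0.783 CPM, and Dynlt1b, from 26.3 and 21.9 CPM to 0.134 and 0.157 CPM. Dynlt1b was held at 10 CPM or more by 13 of 49 single Ngn3-low cells. Col2a1 encodes the collagen of cartilage and was held by 41 of 49, while Ms4a6b is an immune cell gene and was held by 0.

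The same split held for whole lists. All 18 macrophage and white blood cell markers that fell did so with reads in both Ngn3-low libraries, such as Csf1r at 1014 and 825 CPM, 6.31 and 18.9 CPM in Ins1-RFP positive cells, and Mrc1 at 1692 and 1430 CPM against 7.78 and 14.9 CPM. Among the 49 single Ngn3-low cells, 15 of the 22 markers were held by none, Csf1r was held by 2 and C1qa by 5. All 14 endothelial markers were lower in Ins1-RFP positive cells, as in Kdr at 82.6 and 94.3 CPM against 9.73 and 9.87 CPM, and 10 of the 14 were held by no single cell, although Egfl7 was held by 40. Of 429 genes that were at least 8-fold lower and at 20 CPM or more in Ngn3-low, 211 (49.2%) were held by 4 or fewer of the 49 single cells and 131 (30.5%) by 25 or more. Of 2621 genes that were not called and passed the same floor of 20 CPM, these shares were 1.22% and 78.4%. The 2 sets were not matched in level beyond that floor. The single cells were made by another protocol, at 380478 to 1250805 reads each, and count as 1 sample. Notch2, Igfbp4, Rest, Tead2, Onecut1, Wnt7b and Vim were held by 43 or more of the 49 cells, so their progenitor level was read outside the bulk sort too; Maf, Fcgrt, Ednrb, Zeb2, Tgfb1 and Hk1 were held by 5 or fewer.

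**Figure D3:**
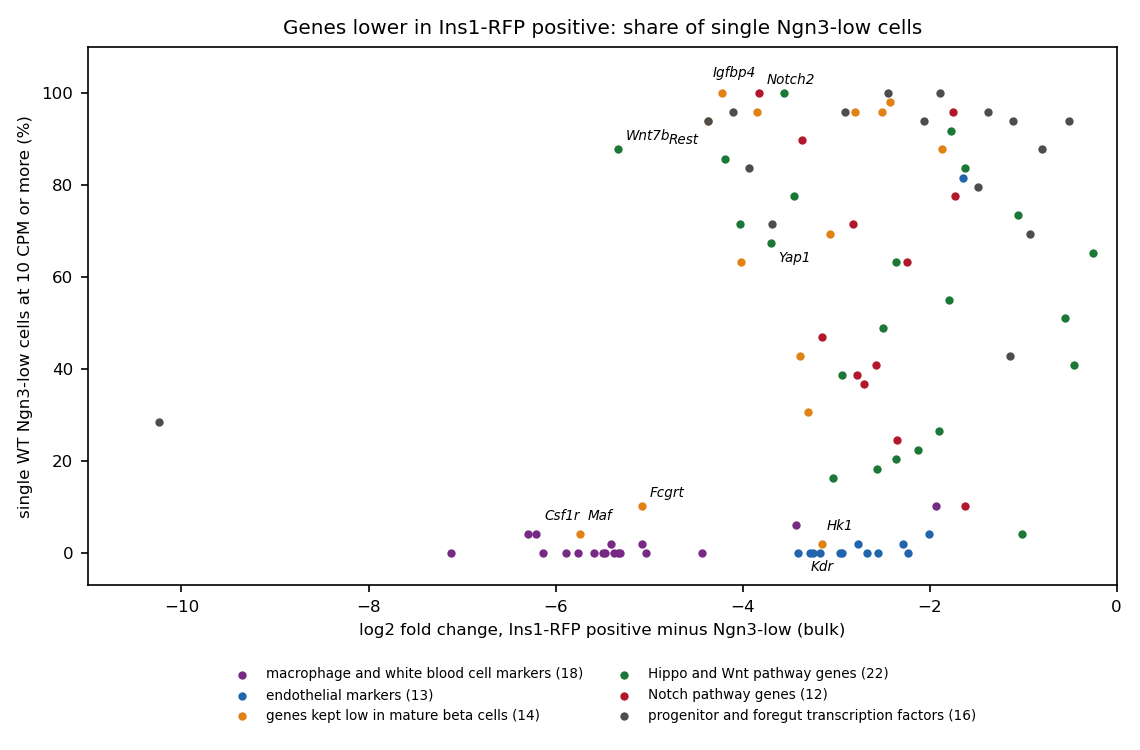
Genes that were lower in Ins1-RFP positive cells, for 6 gene lists (colours) and 10 CPM or more in Ngn3-low, by their bulk log2 fold change (horizontal axis) and by the percentage of 49 single normal Ngn3-low cells that held them at 10 CPM or more (vertical axis). Rest belongs to 2 lists, and the point at the far left is Onecut3, with no read in Ins1-RFP positive cells. Macrophage and most endothelial markers lie at or near 0%, while Notch2 and Igfbp4 lie at 100%.

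Mesenchyme and mesothelium markers were higher in 9 of 16 tested, with the second Ins1-RFP positive library the higher for Col3a1 (67.2 and 262 CPM, against 58.9 and 36.7 CPM in Ngn3-low); without that library 5 were higher and Col3a1 was not called, at 0.50 on the log2 scale. Red blood cell markers were higher in 5 and lower in 4 of 10, counts that came to 3 to 7 higher with 1 library left out in turn, neural crest and glia markers higher in 4 and lower in 4 of 11, and liver and intestine markers higher in 2 and lower in 5 of 15. Of these, Ednrb, an endothelin receptor gene, fell from 226 and 205 CPM to 1.95 and 4.78 CPM, and Ret, the receptor of glial cell line-derived growth factor, rose from 19 and 12.6 CPM to 122 and 107 CPM. Afp differed between the Ngn3-low libraries, at 86.6 and 255 CPM.

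Of 34 axon guidance genes, 16 were lower and 6 higher, and both directions held receptors: Robo2 and Robo1 rose from 6.51 and 8.00 CPM to 184 and 139 CPM and from 32.2 and 29.1 CPM to 158 and 123 CPM, while Ephb4 fell from 187 and 179 CPM to 16 and 21.1 CPM. Of 32 genes of epithelial adhesion and EMT, 17 were lower and 3 higher. Cdh2, N-cadherin, rose from 21.6 and 18.6 CPM to 163 and 144 CPM, Vim, the intermediate filament vimentin, fell from 619 and 531 CPM to 32.3 and 53.7 CPM, and Lama1, a laminin chain, from 118 and 94.6 CPM to 2.42 and 3.45 CPM. Of 8 Hox genes tested, 4 were lower and none was higher, but 1 was lower with DESeq2, 2 with the 4 libraries alone, 0 among genes at 10 CPM or more, and 1 to 5 with 1 library left out in turn. The 20 listed summed to 14.2 and 15.5 CPM against 4.03 and 7.6 CPM.

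Imprinted genes split, with 9 of 23 higher and 10 lower. Gnas and Meg3 rose from 1145 and 1027 CPM to 5782 and 5294 CPM and from 974 and 1175 CPM to 4141 and 3656 CPM. Igf2 and H19, neighbours that share enhancers, both fell, from 1483 and 1407 CPM to 103 and 255 CPM and from 3620 and 3719 CPM to 112 and 712 CPM. Immediate early genes, which respond to handling as well as to signals, were higher in 5 and lower in 5 of 19; Fos was at 1340 and 1267 CPM against 2897 and 2010 CPM, and Klf6 at 798 and 765 CPM against 152 and 122 CPM.

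**Figure D4:**
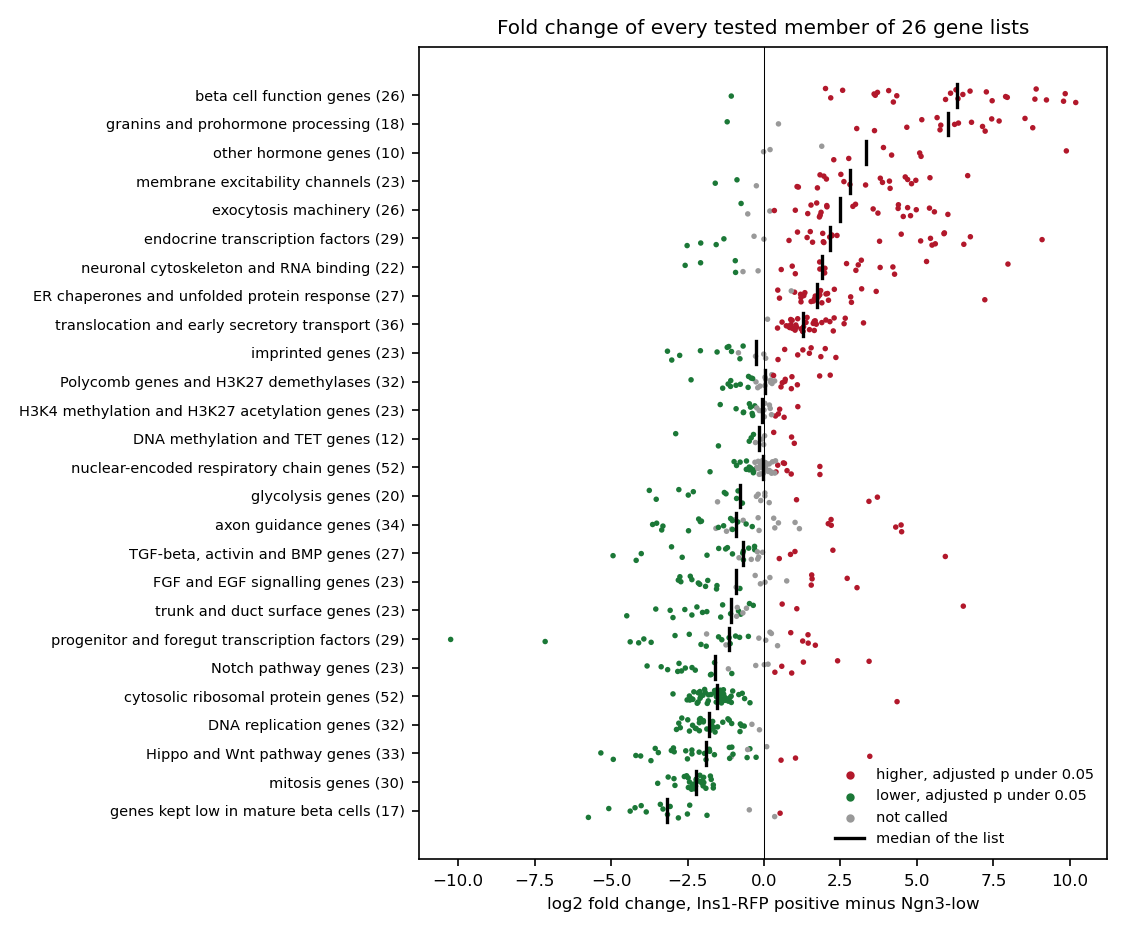
Log2 fold change between Ins1-RFP positive and Ngn3-low (horizontal axis) of every tested member of 26 gene lists (rows, number of members tested in brackets), with members that passed the test in red (higher) or green (lower) and the median as a black bar. Medians run from 6.31 for beta cell function genes to -3.16 for genes kept low in mature beta cells, and the chromatin and respiratory lists lie near 0.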

How the data were processed

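Raw read counts per gene were used as the authors deposited them. Per the submitters' processing notes, the tools included TopHat2 2.1.0, Bowtie2, HTSeq 0.6.0 and DESeq 1.20.0 with the mm10 build. Per the labels, cells were sorted and poly(A) RNA was made into strand-specific libraries. ERCC rows were left out. Of 40824 entries, 15684 passed edgeR's expression filter and were tested with edgeR 4.0.16 (R 4.3.3), quasi-likelihood, TMM factors, all 6 bulk libraries in the fit to share the spread, and Benjamini-Hochberg adjustment at 0.05. The spread between the 2 libraries of a group was not alike. As chi-square per degree of freedom, it was 13.8 for Ngn3-low, 18.6 for Ngn3-high and 62.9 for Ins1-RFP positive. The shared spread may therefore be too small for genes that vary within the Ins1-RFP positive pair. With 2 libraries against 2, an exact two-sided permutation test of a single gene cannot go below 0.333. Alternatives included DESeq2 1.42.0. Single-cell counts were scaled to CPM per cell, and a gene counted as held at 10 CPM. Named genes were 30 set ones, the 10 widest rises and falls with 20 CPM or more, up to 5 per direction and list, lists' uncalled members where 4 or fewer, and the 5 most abundant per length; other names were chosen after values were seen. Members and lists were chosen with earlier results of these data known. Scripts were tested on simulated data. Promoter sequences and gene classes came from RefSeq. Some list members are not reported here by name.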

Additional observations from a re-analysis of the deposited data

Results flagged for a closer look

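Reads were counted on synthetic ERCC spike-in sequences, although no spike-in is named in the labels of the bulk libraries. The first Ngn3-low library held 13 such reads and the first Ngn3-high library 22, against 0 to 2 in the other bulk libraries. These rows were left out of library sizes and tests.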

How the results depend on the processing

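The numbers of genes called higher and lower stayed within 1.5 times the reported 4775 and 5573 under every alternative run: 5021 and 5375 with RLE factors, 4070 and 6515 with total counts, 5220 and 5911 with no expression filter, 3984 and 3944 with genes at 10 CPM or more, 4720 and 5073 with DESeq2, and 5307 and 5176 with the 4 libraries alone. Total counts moved the median by -0.17 and the share of calls that were higher from 46.1 to 38.5%. Leaving out each library gave 3960 to 4573 higher and 4653 to 5334 lower. An arm left with 1 library is assumed to vary like the other groups. With replicate number as a block, 4875 were higher and 5689 lower. The labels give only the numbers 1 and 2, and deviations of same-numbered libraries correlated at 0.11 between Ngn3-low and Ins1-RFP positive, so the numbers are not taken as pairs. The number of genes at least 2-fold lower in Ins1-RFP positive than Ngn3-low was 2239 with genes at 10 CPM or more, which tests fewer genes, against 3615.

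Counts in small lists moved more, and the cause was not tested. Higher members with total counts were 3 TGF-beta, 6 Polycomb and 3 H3K4 and H3K27 acetylation genes, and lower members were 2 exocytosis and 20 respiratory genes. With genes at 10 CPM or more, higher members were 2 D-type cyclin and Myc, 3 FGF and EGF, 0 macrophage, 2 red blood cell and 2 neural crest genes, and lower members were 0 granin, 1 neuronal, 0 Hox, 0 mesenchyme, 0 red blood cell and 2 neural crest genes. Higher D-type cyclin and Myc genes were 2 with RLE factors, DESeq2 and the 4 libraries alone. Lower granin genes were 0 with DESeq2, the 4 libraries alone and the replicate block. Lower Hox genes were 1 with DESeq2 and 2 with the 4 libraries alone, where lower respiratory genes were 8 and lower liver and intestine genes 3, and the latter were 8 with no expression filter. With 1 library left out in turn, higher members ranged from 3 to 6 for FGF and EGF and for TGF-beta genes, 6 to 9 for Polycomb, 3 to 4 for H3K4 and H3K27 acetylation, 0 to 1 for genes kept low, 3 to 5 for immediate early, 1 to 2 for macrophage, 5 to 11 for mesenchyme, 3 to 7 for red blood cell, 2 to 5 for neural crest, and 2 to 4 for liver and intestine. Lower members ranged from 0 to 1 for granin, 2 to 5 for neuronal, 7 to 9 for Polycomb, 4 to 6 for H3K4 and H3K27 acetylation, 3 to 5 for DNA methylation, 5 to 13 for respiratory, 3 to 5 for immediate early, 1 to 5 for Hox, 1 to 6 for acinar and 2 to 8 for liver and intestine.

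Changes of sign were seen only among named genes that were not called. On the log2 scale, total counts gave -0.050 for Sec62, -0.16 for Dll4, -0.14 for Kdm6a and -0.15 for Tet3. RLE factors gave 0.031 for Penk, 0.043 for Etv1 and 0.035 for Tet2, DESeq2 0.050, 0.047 and 0.036, and the 4 libraries alone 0.090, 0.10 and 0.088, with 0.044 for Tet1. No expression filter gave 0.0039 for Etv1 and 0.0015 for Tet2, and genes at 10 CPM or more 0.11 for Etv1, 0.054 for Tet1 and 0.096 for Tet2. With 1 library left out in turn, values ran from -0.29 to 0.62 for Cck, -1.15 to 0.64 for Penk, -0.55 to 0.41 for Etv1, -0.31 to 0.0098 for E2f1, -1.66 to 0.81 for Cftr, -1.44 to 0.26 for Tspan8, -0.19 to 0.19 for Dll4, -0.093 to 0.16 for Kdm6a, -0.12 to 0.022 for Tet1, -0.15 to 0.14 for Tet2, -0.014 to 0.070 for Tet3, -0.77 to 0.99 for Pdgfra and -1.88 to 2.08 for Ptf1a. Of the called genes named, Afp, Canx, Col3a1, Ddx3y, Dll3, Oat and Slc18a2 lost their call without at least 1 of the libraries. The replicate block ended the call of Slc18a2 and added that of Rfx3 and Xist, and changed no other call among the named genes.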

Other observations

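Several genes outside the lists, chosen after their values were seen, had wide differences between the ends. Hmga2 and Lin28b, a chromatin protein and an RNA-binding protein of early embryonic tissue, fell from 473 and 495 CPM to 8.72 and 10.8 CPM and from 9.31 and 12.7 CPM to 0.0671 and 0.235 CPM. Mdk, the growth factor midkine, fell from 359 and 325 CPM to 11.5 and 13.4 CPM, and was at 713 and 596 CPM in the Ngn3-high libraries. Besides Col2a1, the cartilage matrix genes Acan and Col9a1 fell by 5.91 and 5.86 on the log2 scale in edgeR's fit.

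The next 5 genes were picked because they rose, and stand for no wider group. Arhgap36, an inhibitor of protein kinase A, rose from 0.431 and 1.07 CPM to 535 and 454 CPM. Gad1, which makes the transmitter GABA, Npy, the gene of neuropeptide Y, and Th and Ddc, enzymes of catecholamine synthesis, rose by 7.97, 7.95, 5.24 and 3.34 on the log2 scale.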
